A study of Homo sapiens with 6 samples.

Results

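The regions described here are those enriched for 5-hydroxymethylcytosine (5hmC) and those enriched for 5-methylcytosine (5mC) in A2058 cells kept in high glucose for 7 days. They were taken from the authors' peak list of the high-glucose 5hmC library and the authors' peak list of the high-glucose 5mC library, on chromosomes 1 to 22 and X. A region was said to carry the other mark when it overlapped a region of the other list by at least 1 bp, and to lie alone otherwise. Alone thus means that no region of the other mark was listed there, not that the mark was absent. The 2 lists held 191314 regions of 5hmC and 100220 regions of 5mC, 291534 of the 593403 regions in the 4 lists of the series. A2058 is a human melanoma cell line, and all samples, the normal-glucose ones and the inputs included, overexpressed wild-type TET2, so no sample without the transgene enters these values. The sources used here do not give the promoter behind the transgene or whether the cells are 1 clone. Each mark was measured in 1 library per glucose level, by immunoprecipitation of genomic DNA with an antibody against the modified base (hMeDIP-seq for 5hmC, MeDIP-seq for 5mC) and sequencing. With 1 library a side there is no replicate check and no test between marks, and the intervals below cover counting error only.

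DNA methyltransferases place a methyl group on cytosine, in mammals mostly where a guanine follows, and the TET enzymes oxidise that 5mC to 5hmC and onward to bases that repair enzymes can remove. 5hmC is therefore made from 5mC, and bulk DNA can yield both at the same place, on different molecules, alleles or neighbouring cytosines. Antibody enrichment gives regions about as wide as the sequenced fragments or wider, not single cytosines, and the 5mC antibody pulls down best where methylated cytosines are dense. A region with both marks thus says that fragments of each kind came from the same stretch of DNA, and not that the same cytosine carried both.

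The lists differ in depth. From the fold and p-value of a region its fragment count and the count expected there could be worked back, for all regions of both lists. Taking 2700 Mb as the genome size used by the peak caller, the smallest expected counts put the libraries at 28.0 M reads for 5hmC and 6.14 M for 5mC, a ratio of 4.56. The strongest point of a region, its summit, held a median of 23 fragments (9 to 291) in the 5hmC list and 12 (4 to 374) in the 5mC list. The 5hmC regions covered 115 Mb and the 5mC regions 71.4 Mb, with median widths of 464 and 500 bp. A share of 1 list that overlaps the other depends on how much the other list holds, so the shares of the marks are given side by side and not set against each other. Regions are named by their hg19 positions.

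Most regions of either mark lay alone. Of the 5mC regions, 32232 carried 5hmC, or 32.2% (Wilson 95% interval 31.9 to 32.5), and 67988 lay alone. Of the 5hmC regions, 33688 carried 5mC, or 17.6% (17.4 to 17.8), and 157626 lay alone. These percentages are also the background over all regions tested, against which the classes of regions below are read. In bases the overlap was smaller. The marks shared 18.002 Mb, which was 25.2% of the sequence covered by 5mC, 15.7% of that covered by 5hmC and 10.7% of the 168 Mb covered by either. When the 5hmC list was scaled to the background of the shallower 5mC library, which left 131230 of its regions, 5hmC was found in 22.9% of 5mC regions, and 5mC in 17.5% of 5hmC regions. Only summit counts were scaled there, and the ends of the regions stayed as called at full depth, so the setting does not give the shares at matched depth. With the 5hmC list cut to its strongest 100220 regions, equal in number to the 5mC list, these shares were 18.8% and 18.4%. They were 19.6% and 10.3% for 300 bp windows at the summits, and 14.2% and 7.42% where the overlap had to cover 50% of both regions.

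The overlap rule cut through few close calls. Only 137 of the 5mC regions carried the other mark by no more than 10 bp, or 0.137%, and 156, or 0.156%, missed it by a gap of 0 to 10 bp. For 5hmC these counts were 149 and 158. The 5mC regions just inside the rule had a median fold of 6.59 and a median width of 523 bp, and those just outside 6.09 and 534 bp. The 5hmC regions just inside and just outside had median folds of 4.19 and 4.16.

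5mC regions that carried 5hmC were stronger and wider than those alone. Their fold enrichment, the authors' ratio of the summit to the local background, had a median of 8.59 (quartiles 5.65 and 15.7) against 6.11 (4.77 and 8.64) for 5mC regions alone, a ratio of medians of 1.41. Their summits held a median of 17 fragments against 11, and their -log10 p had medians of 15.5 and 9.35. Their median width was 681 bp against 451 bp. The expected count at the summit was also higher, with medians of 0.994 and 0.834 fragments, and its part in these differences was not tested.

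5hmC regions showed much less of this. With and without 5mC, their median folds were 4.57 (quartiles 3.53 and 6.22) and 4.45 (3.60481 and 5.71), a ratio of 1.03, and their summits held a median of 23 fragments in either state. The quartiles show that the regions with 5mC were more spread, with weaker as well as stronger ones. The median expected count was 4.16 in each state. Width did differ, with medians of 643 bp with 5mC and 441 bp alone. A wide region meets another list more easily by the overlap rule itself, and how much of the difference that gives was not tested. Of the 5hmC regions that carried 5mC, 5.22% were at least 2000 bp wide, against 0.542% of those alone, and for 5mC regions these figures were 9.51% and 1.23%.

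The 2 lists also differed in how the share moved with strength. When the 5mC list was split into deciles by -log10 p, the share with 5hmC was 21.2% in the weakest decile and 19.9% in the next. It then climbed in each further decile to 48.2% in the ninth and 63.9% (62.99 to 64.9) in the strongest, whose median fold was 26.7. The 5hmC list gave a shallow trough in place of a climb. The share with 5mC was 19.6% (19.0 to 20.2) in its weakest decile, 14.5% (14.0 to 15.01) in the fifth and 25.4% (24.8 to 26.1) in the strongest.

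**Figure D1:**
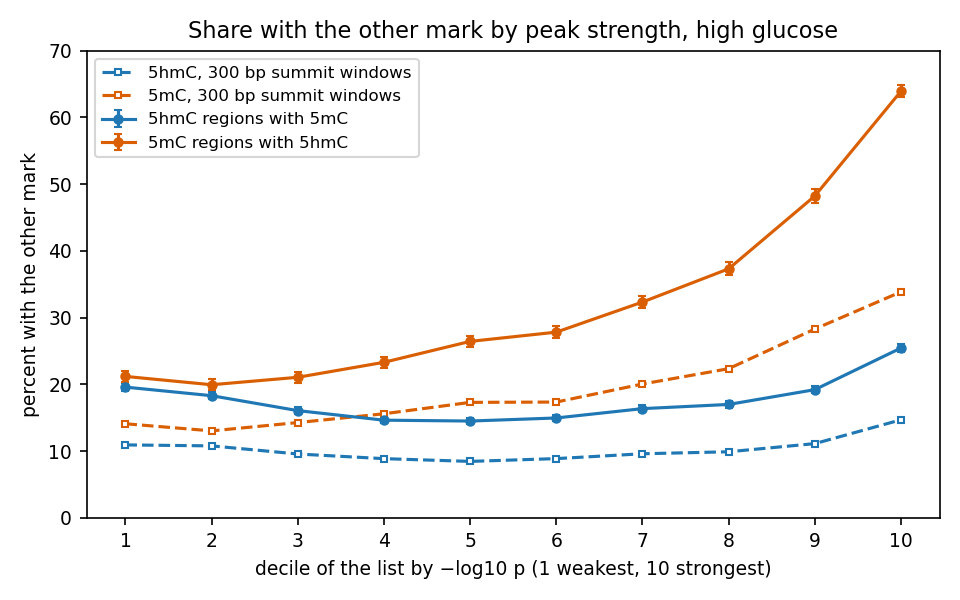
Percent of regions that carried the other mark (vertical axis) by decile of each list ordered by -log10 p (horizontal axis), for 5mC regions (orange) and 5hmC regions (blue) in high glucose; filled points are whole regions with Wilson 95% intervals, open squares with dashed lines are 300 bp windows at the summits. The 5mC line runs from 21.2% to 63.9%, and the 5hmC line starts at 19.6%, dips to 14.5% and ends at 25.4%.

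The deciles were also compared with a window of 300 bp around each summit, a setting chosen for the deciles after the data were seen. This made the windows equal, but the regions behind them still differed in width. The median width was 362 bp in the weakest and 1360 bp in the strongest decile of 5mC regions. The 5mC share then ran from 14.1% in the weakest to 33.9% in the strongest decile. The 5hmC share stood at 10.9% in the weakest, 8.46% in the fifth and 14.7% in the strongest decile. The climb and the trough both remained visible with equal windows, at lower levels, and the part of region width in them was not tested.

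Among regions of like width, fold and overlap moved in different directions in the 2 lists only where 5mC regions of 600 bp or more were compared. Most 5mC regions were narrower and showed little or no rise with fold. Of the 100220 regions of 5mC, 31510 were under 400 bp and 30406 from 400 to under 600 bp. From 400 to under 600 bp, their share with 5hmC was 27.0% in the lowest, 24.85% in the second and 32.3% in the highest quintile by fold. For 5hmC regions from 400 to under 600 bp, the share with 5mC was 18.8% in the lowest quintile of the list by fold and lower at each step, down to 11.2% in the highest quintile. For 5hmC regions under 400 bp the same ends were 13.4% and 6.61%, and for those of 600 to 799 bp 24.8% and 19.1%. For 5mC regions of 600 to 799 bp, the share with 5hmC was 26.7% in the lowest and 45.0% in the highest quintile by fold, and for those of 1000 to 1499 bp 44.0% and 57.1%. 5mC regions under 400 bp showed no such difference, at 16.7% in the lowest and 14.7% in the fourth quintile. Wider regions carried the other mark more often and were mostly of high fold: 1307 of the 1353 regions of 5mC of 3000 bp or more were in the highest quintile by fold, and the 2 were not separated. The share with 5hmC was 17.6% of 5mC regions under 400 bp and 87.4% of those of 3000 bp or more, and the share with 5mC was 9.87% and 78.6% of 5hmC regions at these widths.

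Counting summits of the other mark per Mb of covered sequence gave a measure that does not grow with width by its construction. The span between the outermost regions of the chromosomes held 64.9 summits of 5hmC per Mb, and sequence inside 5mC regions 355 per Mb. From the lowest to the highest quintile of 5mC regions by fold, this density was 282, 314, 328, 362 and 400 summits of 5hmC per Mb, higher at each step. The converse was flat. Inside 5hmC regions there were 209 summits of 5mC per Mb, against 34.0 per Mb over the same span, and the quintiles of 5hmC regions by fold gave 220, 211, 194, 199 and 217. 5mC regions of high fold were thus denser in 5hmC summits than those of low fold, while 5hmC regions of high and low fold differed little in 5mC summits. In both lists the regions of high fold were also wider, and the part of width in these densities was not tested.

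Regions that overlapped mostly did so in plain pairs. Overlapping regions of the 2 lists formed 30966 groups, of which 27880, or 90.03%, held 1 region of each mark. That number was 16218 with lists of equal length and 10884 from a -log10 p of 10 up. Another 1945 groups held 1 region of 5mC with several of 5hmC, 842 held several of 5mC with 1 of 5hmC, and 299 held several of each. Within the 1-and-1 pairs, the regions were staggered in 56.3%, the 5hmC region lay inside the 5mC region in 24.0%, and the 5mC region lay inside the 5hmC region in 19.7%. No pair had identical ends. Where 5hmC lay inside 5mC, the median widths were 448 bp for 5hmC and 1070 bp for 5mC, and where 5mC lay inside 5hmC they were 463 bp for 5mC and 1060 bp for 5hmC. Staggered partners were of nearly equal width, with medians of 600 and 604 bp, and shared a median of 338 bp. Over all 1-and-1 pairs the overlap had a median of 395 bp (upper quartile 576), which was 67.9% of the 5mC region and 71.2% of the 5hmC region at the median, and in 49.2% of pairs it made up at least 50% of each.

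The summits of paired regions often stood apart. In the 1-and-1 pairs the distance between the 5mC and the 5hmC summit had a median of 184 bp (quartiles 68 and 430), below the shortest width in either list, 292 bp for 5hmC and 324 bp for 5mC. It was at most 50 bp in 19.7% of pairs, at most 200 bp in 52.3% and at most 500 bp in 79.7%, and the 2 summits fell on the same base in 119 pairs. Among pairs that overlapped by 50% of both regions the median was 114 bp. Each summit lay inside the other mark's region in 60.8% of pairs. In 3229 pairs, or 11.6%, neither did, so that only the flanks of the regions met. The distance grew with width, from a median of 108 bp in the 6750 pairs with both regions under 600 bp to 580 bp in the 2354 pairs whose wider region had 2000 bp or more. By strength the distances differed in spread more than in the middle. Where both regions had a -log10 p of 20 or more (2357 pairs) the median was 199 bp (quartiles 59 and 573), with 22.7% of pairs within 50 bp. Where both were under 7 (1367 pairs) it was 178 bp (70 and 339), with 18.4% within 50 bp. Strong pairs thus had both more near summits and more distant ones. In both lists the strongest regions were also wider than the weakest, and the part of width in these distances was not tested.

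**Figure D2:**
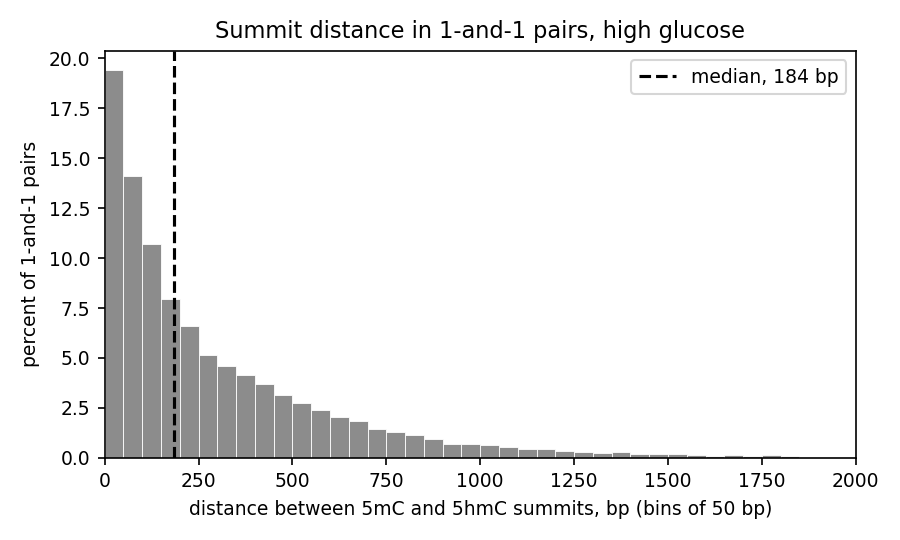
Distance between the 5mC and 5hmC summits (horizontal axis, bp, bins of 50 bp) as percent of the 27880 1-and-1 pairs in high glucose (vertical axis); the dashed line is the median, 184 bp. The commonest bin is the shortest, and 79.7% of pairs lie within 500 bp.

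Strength was hardly shared within pairs. Across the 27880 pairs, all from the same 2 libraries, the folds of the partners had a Spearman rho of 0.0272 and their widths a rho of 0.161, given as a description. Pairs in the lowest quintile by 5mC fold had median folds of 4.49 for 5mC and 4.54 for 5hmC. In the highest quintile the 5mC median was 24.8 and the 5hmC median 4.71. The summit distance was 172 bp in the lowest and 236 bp in the highest quintile at the median.

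Where 5hmC summits lay relative to the edges of 5mC regions was measured as summits per Mb of sequence at each distance from the nearest edge. Outside 5mC regions the density was 50.1 summits of 5hmC per Mb at 25600 to 51200 bp. It came to 109 at 800 to 1600 bp, and 138 in the 100 bp next to the edge. Inside it was 235 in the first 100 bp and highest at a depth of 200 to 400 bp, with 486. Deeper, at 800 to 1600 bp, which only wide regions reach, it was 328. The same order was found within the 5mC regions of 2000 bp or more alone, with 475 per Mb (exact Poisson 95% interval 441 to 510) at a depth of 200 to 400 bp against 325 (308 to 343) at 800 to 1600 bp. In wide 5mC regions, 5hmC summits were thus densest at 200 to 400 bp in from the edge and less dense farther in. Each region counts by its summit only, whatever its width, and 5hmC cover by depth was not measured.

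5mC summits around 5hmC regions gave a like outline. The density was 10.6 summits of 5mC per Mb at 25600 to 51200 bp outside, 71.2 in the 100 bp next to the edge, and 280 at a depth of 200 to 400 bp inside. Over all 5hmC regions it stayed near that level deeper in, with 285 at 800 to 1600 bp. In 5hmC regions of 2000 bp or more it was 365 (329 to 403) at that depth and 287 (266 to 309) at 800 to 1600 bp.

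**Figure D3:**
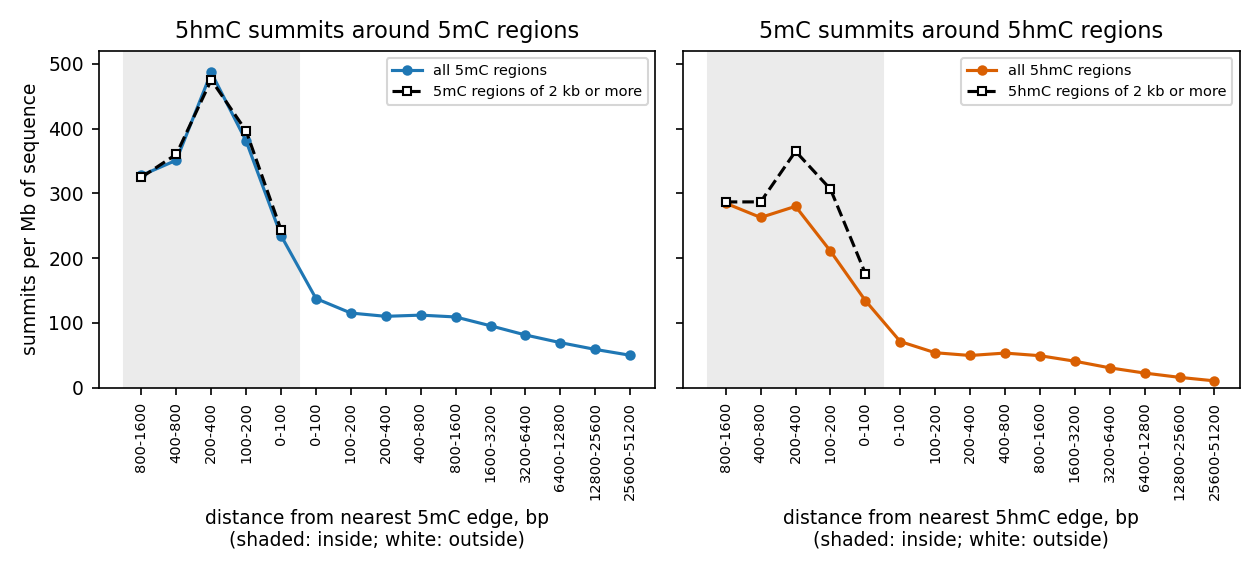
Summits of the other mark per Mb of sequence (vertical axis) by distance from the nearest region edge (horizontal axis, bp, bins of rising width; shaded inside, white outside), for 5hmC summits around 5mC regions (left) and 5mC summits around 5hmC regions (right) in high glucose; dashed lines are regions of 2000 bp or more. On the left, density is highest 200 to 400 bp inside the edge, at 486, and on the right it is 280 there and 285 farther in; next to a region it is higher than 25600 bp away on both sides.

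5mC regions alone lay close to 5hmC, while 5hmC regions alone were often far from 5mC. The gap from a 5mC region alone to the nearest 5hmC region had a median of 3312 bp (quartiles 1219 and 8379). From a 5hmC region alone to the nearest 5mC region it was 11969 bp (3178 and 45957). The 5hmC list has 1.91 times as many regions, and a fuller list leaves shorter gaps to it. With lists of equal length the medians were 6444 and 13295 bp, and from a -log10 p of 10 up 5868 and 25199 bp. Within 1000 bp of the other mark lay 1310, 5987 and 7021 of the 5mC regions alone, in the bins of up to 100, over 100 to 500 and over 500 to 1000 bp, or 1.93%, 8.81% and 10.3%. More than 100000 bp away were 236 of the 5mC regions, or 0.347%, and 22512 of the 5hmC regions, or 14.3%.

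Fold differed with this distance. 5mC regions alone had a median fold of 6.07 within 100 bp of 5hmC, 6.33 at a gap of over 100 to 500 bp and 5.76 at over 10000 to 100000 bp. 5hmC regions alone had 4.16, 4.17 and 4.50 at these gaps, and 4.63 beyond 100000 bp. Isolation from the same mark was similar for the 2 lists. The nearest 5mC region was 3642 bp from a 5mC region alone and 1698 bp from one with 5hmC at the median, and the nearest 5hmC region was 3219 bp from a 5hmC region alone and 1347 bp from one with 5mC. Regions with both marks therefore lay in denser neighbourhoods of their own mark than regions alone.

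**Figure D4:**
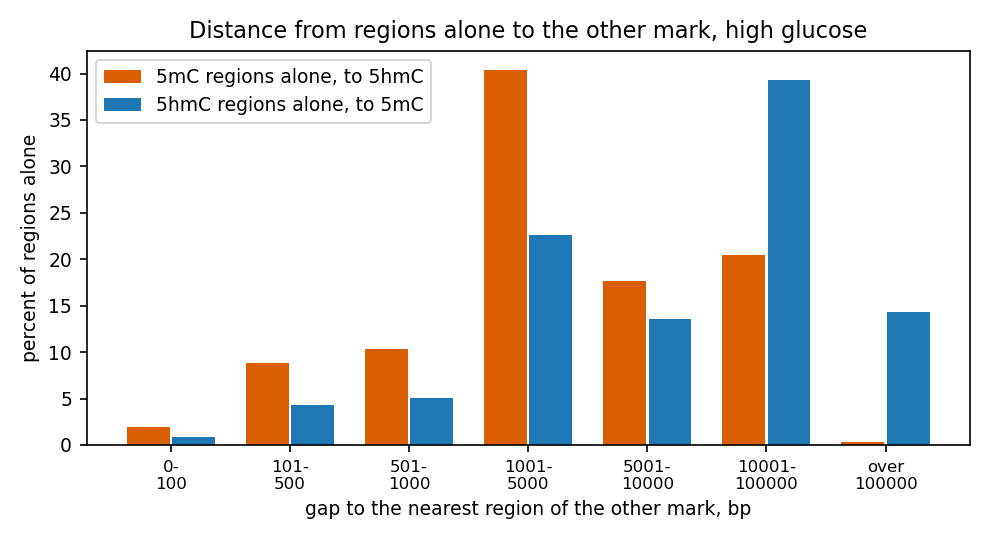
Percent of the regions alone (vertical axis) by gap to the nearest region of the other mark (horizontal axis, bp, bins of unequal width), for 67988 regions of 5mC (orange) and 157626 of 5hmC (blue) in high glucose. The fullest bin is over 1000 to 5000 bp for 5mC, with 40.4%, and over 10000 to 100000 bp for 5hmC, with 39.3%.

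Chromosomes differed by more than their counting error. 5hmC was found most often in the 5mC regions of chromosome 19, at 49.9% (48.7 to 51.1), followed by chromosome 20, at 42.3%, and chromosome 16, at 40.2%. The lowest shares were on chromosome 6, at 21.2% (20.05 to 22.5), and on chromosome 3, at 22.2%. The share of 5hmC regions with 5mC was also highest on chromosome 19, at 40.1% (39.1 to 41.2), and lowest on the X chromosome, at 8.49% (7.76 to 9.29). Chromosome 19 held 111 regions of 5mC and 147 of 5hmC per Mb, and the X chromosome 11.7 and 33.6. Across the 23 chromosomes, a description with no test, the share of 5mC regions with 5hmC had a Spearman rho of 0.826 with the number of 5hmC regions per Mb. The share of 5hmC regions with 5mC had a rho of 0.890 with the number of 5mC regions per Mb. By the overlap rule itself, a region meets the other list more easily where that list is denser, and the part of this in either rho was not tested. The 2 shares of a chromosome could be far apart. On chromosome 20, with 2.12 regions of 5hmC for each of 5mC, 42.3% of 5mC regions carried 5hmC and 20.8% of 5hmC regions carried 5mC. On chromosome 22, with 1.23, these were 33.9% and 28.4%.

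**Figure D5:**
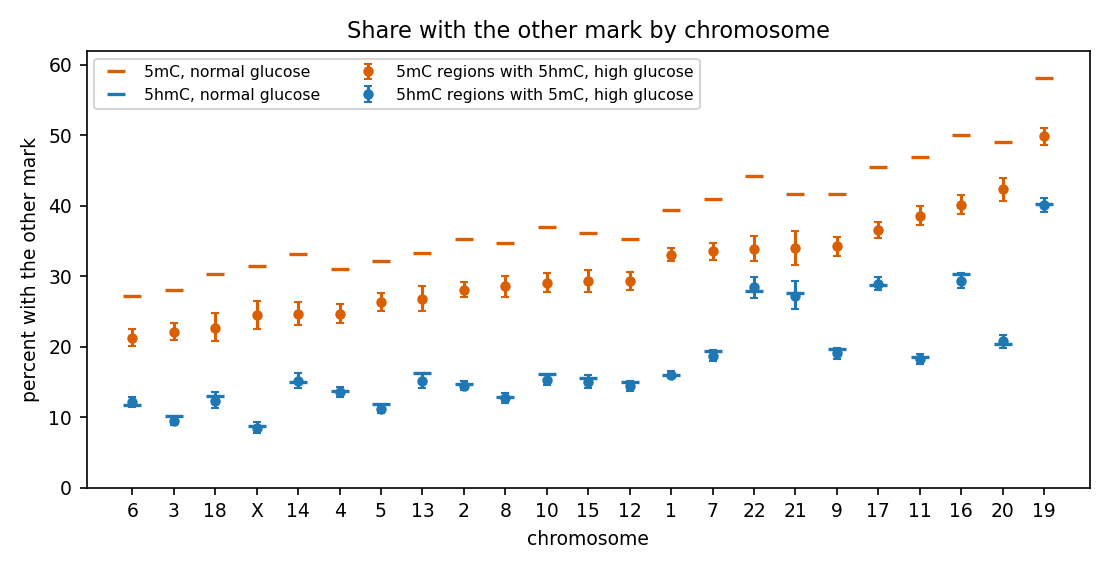
Percent of 5mC regions with 5hmC (orange) and of 5hmC regions with 5mC (blue) on each chromosome, ordered by the first; points with Wilson 95% intervals are high glucose and dashes are normal glucose. Chromosome 19 is highest in both shares, at 49.9% and 40.1%, and each orange dash lies above its point.

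At the scale of 1 Mb windows, regions of both lists carried the other mark more often where 5mC covered more sequence. Windows with 5mC were put into quintiles by the sequence that 5mC regions covered. From the poorest to the richest quintile, 5hmC was found in 10.8%, 13.2%, 18.7%, 24.99% and 40.0% of 5mC regions, and the share of 5hmC regions with 5mC was 1.31%, 3.50%, 6.70%, 12.9% and 33.5%. The median 5mC cover of a window went from 1.62 to 62.2 kb over these quintiles and the median 5hmC cover from 12.02 to 84.2 kb, so either mark had more of the other to meet in the richer windows. Within each of these quintiles of windows, the 5mC regions of highest fold carried 5hmC more often than those of lowest fold. In the poorest windows the share was 9.69% in the lowest and 21.5% in the highest quintile by fold, and in the richest windows 26.2% and 62.3%. Median widths at these ends were 324 and 804 bp, and 377 and 1174 bp. For 5mC regions from 400 to under 600 bp the ends were 30.7% and 36.7% in the richest windows. In the poorest 3 quintiles of windows they were 21.2% and 20.8%. Under 400 bp in the richest windows the share was 21.7% in the lowest and 18.4% in the fourth quintile by fold. For 5mC regions of 1000 bp or more in the richest windows the ends were 48.8% and 72.0%. For 5hmC regions of all widths the share was also higher at the highest than at the lowest fold, at 2.61% and 1.16% in the poorest windows and 37.9% and 32.1% in the richest. Within narrow 5hmC regions the order turned. For regions from 400 to under 600 bp there it went from 31.8% (30.6 to 33.1) in the lowest to 22.6% (21.3 to 23.8) in the highest quintile by fold. In the poorest 3 quintiles of windows the same ends were 5.20% (4.54 to 5.94) and 3.71% (3.24 to 4.25). For 5hmC regions of 1000 bp or more in the richest windows the ends were 58.6% and 55.6%.

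The 100 windows with the most shared sequence held 40.0% of all shared sequence, with 27.7% of the 5mC and 13.9% of the 5hmC sequence. The most lay on chromosome 17 from 80000001 to 81000000, where 148 kb carried both marks, 165 of 314 regions of 5mC carried 5hmC and 194 of 238 regions of 5hmC carried 5mC. Chromosome 7 from 1 to 1000000 followed with 147 kb, and 59.9% and 72.9% of its 5mC and 5hmC regions had the other mark. Chromosome 19 from 3000001 to 4000000 also had 147 kb, with 66.8% and 64.0%. At the other end, 700 of 2873 windows had no shared base.

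Among the 1379 windows with at least 20 regions of each mark, the share of 5mC regions with 5hmC had a median of 28.0% (quartiles 17.9 and 38.2). It was highest on chromosome 10 from 80000001 to 81000000, where 29 of 42 regions of 5mC carried 5hmC. There 5hmC was the plentiful mark, and 28 of its 203 regions carried 5mC. Next came chromosome 20 from 36000001 to 37000000, with 41 of 60, and chromosome 1 from 1 to 1000000, with 36 of 53. In 15 windows no 5mC region met 5hmC although each mark had at least 20 regions. On chromosome 13 from 41000001 to 42000000, there were 40 regions of 5mC and 46 of 5hmC without a shared base. They covered only 18.7 and 21.4 kb of that 1 Mb, and the number of overlaps to be expected at such cover was not computed. Chromosome 14 from 31000001 to 32000000, had 30 and 27 without overlap. The stretch of chromosome 18 from 2000001 to 3000000 held 25 regions of 5mC and 33 of 5hmC, again none of them shared.

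The pairs in which both marks were strong, ranked by the lower of their -log10 p, are led by a region on chromosome 10. 5mC was enriched there from 134429464 to 134431192 with a fold of 46.0 (89 fragments), and 5hmC from 134429267 to 134430570 with a fold of 24.7 (121 fragments), the highest 5hmC fold among regions with 5mC. Their summits were 68 bp apart. Second was chromosome 13, with 5mC from 114488653 to 114489903 at a fold of 41.2 and 5hmC from 114488704 to 114490013 at 22.4, and summits 21 bp apart. The distal end of chromosome 13 supplied 3 of the 10 pairs. The others there were 5mC from 114773791 to 114784768 with 5hmC from 114777501 to 114779927, and 5mC from 114266996 to 114269288 with 5hmC from 114267756 to 114268787. On chromosome 7, a 5mC region from 2098148 to 2103624 with a fold of 74.5 held 4 regions of 5hmC, the strongest from 2098623 to 2099534 with a fold of 23.1 and its summit 762 bp from that of 5mC.

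The other pairs of the 10 lay on chromosome 1 (5mC from 224199954 to 224202744 and from 209943592 to 209945636), chromosome 11 (5mC from 118479407 to 118482360 and from 1015593 to 1018843) and chromosome 9 (5mC from 126734378 to 126736286). Over the 10 pairs the 5mC folds ran from 23.4 to 74.5 and the 5hmC folds from 10.5 to 24.7. The summits were up to 1515 bp apart, in the pair on chromosome 9, where the 1909 bp of 5mC lay wholly within 2645 bp of 5hmC. Each of these 20 regions overlapped a 5hmC and a 5mC region in the normal-glucose lists as well.

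The longest single overlap was on chromosome 8, where a 5mC region from 144990125 to 145002343 lay whole within a 5hmC region from 144984242 to 145008311, with 12219 bp in common. The 5mC fold there was 54.4 and the 5hmC fold 5.30, and the summits were 7540 bp apart. Overlaps of 7803, 7404, 6733 and 6268 bp followed, in that order at the 5mC regions on chromosome 1 from 1267264 to 1278653, on chromosome 7 from 207365 to 214869, on chromosome 1 again from 53560734 to 53568590, and lastly on chromosome 2 from 10150560 to 10156827. In the second of these 5 the summits were only 22 bp apart, while in the last they were 3189 bp apart.

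The regions with the most partners were long stretches broken up in the other list. The 5mC regions on chromosome 16 from 586164 to 602803 and from 2220064 to 2235428 each met 10 regions of 5hmC. A region on chromosome 1 from 974969 to 991115 met 7, as did those on chromosome 7 from 1526023 to 1538186 and on chromosome 22 from 50895106 to 50906203. The converse was rarer. The 5hmC region on the X chromosome from 153576805 to 153589136 met 9 regions of 5mC, that on chromosome 11 from 69459849 to 69472909 met 6, and no other met more than 4. Of all 5mC regions, 76 met 4 or more of 5hmC, and of all 5hmC regions, 13 met 4 or more of 5mC.

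Being alone was not a property of weak regions only. The strongest 5mC region alone, on chromosome 11 from 68153122 to 68154783, had a fold of 83.4 from 191 fragments and lay 593 bp from the nearest 5hmC region. The second, on chromosome 5 from 140810279 to 140812551, had a fold of 94.1, the highest of any 5mC region alone. Its nearest 5hmC region was 12917 bp away. The region on chromosome 9 from 37786937 to 37788087 had a fold of 82.3 and 5hmC at 3485 bp. A second one on chromosome 11, from 86141883 to 86143004, had a fold of 72.0 and 5hmC at 8497 bp. The region on chromosome 19 from 5660908 to 5662218 had a fold of 84.6 and 5hmC at 4952 bp. All 5 were listed as 5mC in normal glucose too. In the normal-glucose 5hmC list, 2 of the 5, the first and the one on chromosome 19, overlapped a region.

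The strongest 5hmC region alone, on chromosome 1 from 228506805 to 228508769, had a fold of 17.8 and the highest -log10 p of the 5hmC list, 136. The nearest 5mC region was 16783 bp away. On chromosome 9 from 136968343 to 136969880 the fold was 24.0, with 5mC at 8435 bp, and on chromosome 16 from 88467668 to 88468922 it was 17.2, with 5mC at 849 bp. The remaining ones had another profile. The region on chromosome 21 from 11123994 to 11124530 and the 46337 bp on chromosome 10 from 38772463 to 38818799 had lower folds, 11.9 and 8.96, and more fragments at the summit, 181 and 217. Both lie near a centromere, and the sources used here do not give how reads with several places in the genome were handled. All 5 regions were listed as 5hmC in normal glucose, and 1, on chromosome 16, overlapped a normal-glucose 5mC region.

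The regions farthest from the other mark lay close to each other within each list. The 5 5hmC regions with the longest gaps lay on the X chromosome between 92486444 and 92890300, 2875590 to 3208332 bp from the nearest 5mC region, with folds of 3.47 to 5.21. The 5 5mC regions with the longest gaps lay on chromosome 9 between 44876026 and 45435756, also near the centromere, 1370863 to 1750685 bp from the nearest 5hmC region, with folds of 5.62 to 7.31 and up to 37 fragments at the summit. In normal glucose 4 of the first 5 were listed as 5hmC and all of the second 5 as 5mC, and 1 of the second 5 overlapped 5hmC there.

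The normal-glucose lists, which the states did not use, were then read at the same places. High-glucose 5mC regions with 5hmC overlapped normal-glucose 5hmC in 86.5% (86.1 to 86.9), and those alone in 13.8% (13.6 to 14.1). High-glucose 5hmC regions with 5mC overlapped normal-glucose 5mC in 82.0% (81.6 to 82.4), and those alone in 2.77% (2.69 to 2.85). Regions with both marks were also more often listed again for their own mark. For 5mC this held for 83.1% with 5hmC and 66.3% alone, and for 5hmC for 87.5% with 5mC and 73.5% alone. Among regions with a -log10 p of 20 or more these last shares met near the top, at 99.8% and 99.5% for 5mC and 99.8% and 99.1% for 5hmC. Among those with a -log10 p under 7 they stood apart, at 46.8% with 5hmC and 37.3% alone for 5mC, and 72.35% with 5mC and 53.7% alone for 5hmC. Regions with both marks were wider than those alone, and a wide region meets any list more easily. The part of width in these shares was not tested. At a -log10 p of 20 or more, 2913 of 11749 regions of 5mC alone, or 24.8%, overlapped 5hmC in normal glucose, and 887 of 23636 regions of 5hmC alone, or 3.75%, overlapped 5mC.

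Set beside the normal-glucose pair of lists, made from other libraries of the same cells, the overlap took a smaller part of 5mC in high glucose. Among its other features, the share of 5hmC regions with 5mC and the summit distance were of like size. The gaps from regions alone were longer in high glucose. The lists differed in length, with 191314 regions of 5hmC and 100220 of 5mC in high glucose against 209999 and 91870 in normal glucose. The part of list length in the values below was not tested. 5hmC was found in 32.2% of 5mC regions in high and 39.7% in normal glucose, and the shared sequence was 25.2% and 32.0% of that covered by 5mC. 5mC was found in 17.6% and 18.02% of 5hmC regions. The ratio of median folds, with over without the other mark, was 1.41 in high and 1.35 in normal glucose for 5mC regions, and 1.03 and 1.07 for 5hmC regions. The ratio of median widths was 1.51 in both for 5mC regions, and 1.46 in high and 1.59 in normal glucose for 5hmC regions. The share of groups with 1 region of each mark was 90.03% and 88.8%, and the median summit distance 184 and 180 bp. The median gap from regions alone was 3312 and 2839 bp for 5mC, and 11969 and 10918 bp for 5hmC. The order of the chromosomes was close, with a Spearman rho of 0.985 over 23 chromosomes between the shares of 5mC regions with 5hmC, given as a description. That share was lower in high glucose on 23 of 23 chromosomes, which all come from the same libraries and are not separate observations. With 1 library a side, glucose level and library cannot be told apart here, and no difference between the pairs was tested.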

How the data were processed

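The authors deposited 1 peak list per immunoprecipitated library, per the labels, with a fold enrichment (ratio), a summit, a -log10 p-value and the matching -log10 q-value for each peak. The deposited score is 10 times that -log10 q cut to a whole number and was not used. The submitters' processing notes name hg19, bedtools 2.17.0, SAMtools 0.1.18, Bowtie 1.0.0 and CASAVA 1.8.2, without their roles. The sources used here do not give the peak caller, its control or its handling of duplicates. The lists hold q-values up to 0.0498 (5hmC) and 0.0496 (5mC) in high glucose. The input libraries were not used here, nor any hg19 gene annotation or sequence, so CpG content and genes under the regions were not run.

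Overlaps, gaps, widths and summit distances were computed with NumPy 2.4.6, pandas 2.3.3 and SciPy 1.17.1 in Python 3.11.15, tested on simulated regions, and bedtools 2.31.1 counted the same 32232 and 33688 overlapping regions. The fragment count t and expected count L of a summit were those for which the fold equals (t + 1)/(L + 1) and the p-value the Poisson probability of more than t. Reads follow from the smallest L and the shortest region. Folds and p-values describe and rank regions within a list only. Named regions were the 10 pairs with the highest lower -log10 p, the 5 longest overlaps, and in each list the 5 strongest alone, the 5 farthest from the other mark and the 5 with most partners. Windows named were the 3 with most shared sequence and the 3 highest and lowest by share. The comparison, the rules and the alternatives were chosen with earlier results of these data known.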

Additional observations from a re-analysis of the deposited data

Results flagged for a closer look

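The high-glucose lists also held 80 peaks of 5hmC and 14 of 5mC on the Y chromosome and mitochondrial DNA, sequence that no comparison above used.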

How the results depend on the processing

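With 1 library a side, values that moved beyond the interval of the reported value, or past 1.5 times for a count, are printed. Of 79 alternative values of 11 results, 24 stayed within it and 55 moved. A turn of direction was defined only for the ratios of width and fold, with over without the other mark, and 0 of these turned. The overlap rule itself favours a width ratio above 1. In the order share of 5mC regions with 5hmC, share of 5hmC regions with 5mC and 5mC bases shared, keeping regions with -log10 p from 10 up gave 23.9%, 13.1% and 18.7%, and equal numbers of top regions 18.8%, 18.4% and 16.4%. The 300 bp summit windows gave 19.6%, 10.3% and 12.3%. An overlap of 50% of both regions gave shares of 14.2% and 7.42%. A -log10 q of at least 2 gave 31.6% for the first share and 24.9% of 5mC bases, joining within 500 bp 26.0% of bases, and autosomes alone 17.9% for the second share and 25.3% of bases. The 5hmC list scaled to the 5mC background, chosen after the data were seen, gave 22.9% for the first share and 19.3% of bases. 1-and-1 groups numbered 10884 from a -log10 p of 10 up and 16218 with equal numbers. The median summit distance was 210.0 bp at that -log10 p, 191 bp with equal numbers and 114 bp with 50% overlap.

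The width ratio of 5mC regions, with over without 5hmC, was 1.48 from a -log10 p of 10 up, 1.48 with equal numbers, 1.31 with 50% overlap, 1.61 with joining and 1.48 with scaling, and that of 5hmC regions 1.72, 1.66, 1.42, 1.56 and 1.62. The fold ratio of 5mC regions was 1.30 at that -log10 p, 1.36 with 50% overlap and 1.27 with summit windows. That of 5hmC regions was 1.06 at that -log10 p, 1.04 at the -log10 q, 1.06 with equal numbers, 1.07 with 50% overlap, 1.05 with joining and 1.09 with scaling. The median gap from 5mC regions alone was 5868 bp at that -log10 p, 3370 bp at the -log10 q, 6444 bp with equal numbers, 2686 bp with summit windows, 3484 bp with joining and 4843 bp with scaling. From 5hmC regions alone it was 25199, 12146, 13295, 9847, 12576 and 13249 bp in the same order, and 11608 bp on autosomes. A shorter list leaves fewer overlaps with it by construction. No paired analysis was possible because each group has 1 library.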
